A study of Mus musculus with 10 samples.

Results

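Genes of fibroblasts, extracellular matrix and contractile cells were followed in laser-captured pancreatic tumour epithelium of the mouse. The group was a list of 34 symbols chosen by name, and all 34 were found among the 15624 genes of the deposited count table. KPFSR mice develop pancreatic ductal adenocarcinoma from engineered alleles. From knowledge of the model, not from the labels, the mice carry tumour-driving alleles, a Flp recombinase under the Pdx1 promoter, a floxed Slc7a11 gene and a Cre recombinase that tamoxifen switches on. All 10 libraries are labelled KPFSR tumour epithelium, so the controls carry the same alleles. Laser capture is named by the deposited table, not by the labels. Per the labels, 4 had corn oil, the vehicle, and 6 had tamoxifen. Age, dose and time are not stated by the labels. Nothing ties a library to an animal: a p-value here reflects the spread among libraries and is too small if some share an animal.

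Pancreatic ductal adenocarcinoma is known for a dense stroma laid down largely by cancer-associated fibroblasts. These cells secrete fibrillar collagens, which are cross-linked into fibres and decorated with small proteoglycans and glycoproteins. A subset, the myofibroblasts, also builds smooth-muscle actin filaments. Laser capture is aimed at the epithelium, yet epithelial tumour cells can themselves make basement membrane collagen, fibronectin and other matrix proteins. Epithelial RNA and RNA of neighbouring fibroblasts cannot be told apart in a bulk library, nor can fewer cells of a type and less RNA per cell.

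The libraries held 6899347 (tamoxifen replicate 6) to 36132316 (corn oil replicate 2) counts. Levels are given as normalised CPM, counts scaled to library size with TMM factors. The epithelial label held up: all 12 epithelial markers had counts in every library, with Krt18 at 3185 to 10013 normalised CPM. The epithelial markers summed to 15271 to 32303 with corn oil and 14283 to 26410 with tamoxifen, and 10 of the 12 had a fold change below 0 (median log2 -0.29). Slc7a11, the floxed gene, was at 23.2 to 40.1 with corn oil and 5.90 to 19.3 with tamoxifen. Tamoxifen replicates 1 to 3 were closest to each other, with Pearson's r across genes of 0.921 to 0.963 against at most 0.878 for any other pair. Results were therefore also computed with these 3 as 1 sample and without them.

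The genes fall into 8 roles: fibrillar collagens, basement membrane collagens, collagen VI, small proteoglycans, matrix glycoproteins, enzymes with a chaperone and inhibitors, surface receptors, and contractile proteins. Promoter windows were at hand for 21 of the 34 genes (23 windows, RefSeq, GRCm38.p6). Of the windows that overlap no annotated exon, 3 are shown because their genes behaved differently from library to library: Col3a1 spread 8.63-fold, Bgn 11.5-fold and Col5a1 2.11-fold between their lowest and highest libraries. Each is the 250 bases before the transcription start, 5′ to 3′ on the plus strand. The windows lie at chr1:45311288-45311537 for Col3a1, chr2:27886175-27886424 for Col5a1 and chrX:73483351-73483600 for Bgn. Capitals mark matches, on either strand, to a TATA box (TATAAA), a GC box (GGGCGG) or a CCAAT box (CCAAT).
Col3a1: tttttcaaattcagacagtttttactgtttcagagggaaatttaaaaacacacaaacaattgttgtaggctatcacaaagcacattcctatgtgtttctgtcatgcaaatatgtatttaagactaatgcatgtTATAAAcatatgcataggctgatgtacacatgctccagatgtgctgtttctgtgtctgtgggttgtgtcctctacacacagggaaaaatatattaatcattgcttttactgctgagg
Col5a1: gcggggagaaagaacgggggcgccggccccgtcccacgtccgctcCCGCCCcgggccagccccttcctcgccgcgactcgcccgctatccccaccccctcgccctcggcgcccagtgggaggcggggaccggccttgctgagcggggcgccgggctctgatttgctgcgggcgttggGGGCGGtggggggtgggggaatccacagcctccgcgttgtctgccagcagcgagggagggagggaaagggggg
Bgn: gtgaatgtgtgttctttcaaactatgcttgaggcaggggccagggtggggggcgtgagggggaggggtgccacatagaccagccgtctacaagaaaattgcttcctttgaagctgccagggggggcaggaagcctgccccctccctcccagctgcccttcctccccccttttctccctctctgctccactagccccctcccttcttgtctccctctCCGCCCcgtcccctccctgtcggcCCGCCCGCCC

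The Col3a1 window was AT-rich, with 35.2% G or C and 1 TATA box match. The Col5a1 window was at 76.4% G or C with 2 GC box matches, and the Bgn window at 64.4% with 3, of which 2 overlap. Of 32851 windows in the RefSeq table, 12.4% held a TATA box match, 32.7% a GC box match and 33.8% a CCAAT box match. Among the 23 windows of these genes the counts were 2, 14 and 4. A match is a description of letters, not a bound site.

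The first question was how much of this program each library held. The 34 genes together stood at 1828, 1878, 2470 and 2969 normalised CPM in corn oil replicates 1 to 4. In tamoxifen replicates 1 to 6 they stood at 2660, 1964, 2602, 4673, 3121 and 5268. Tamoxifen replicates 4 and 6 were the highest of all libraries, and of the other 4 tamoxifen libraries, at 1964 to 3121, replicate 5 alone lay above the corn oil range. Group levels were 2287 ± 540.5 (SD, n = 4) and 3381 ± 1299 (SD, n = 6), a difference of 1095 that was 303.9 without tamoxifen replicates 4 and 6. As a share of all reads the genes took 0.171% to 0.284% with corn oil and 0.218% to 0.467% with tamoxifen. Per 100 units of summed epithelial markers they stood at 5.81 to 16.2 with corn oil and 11.8 to 21.2 with tamoxifen, and those ranges overlapped.

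**Figure D1:**
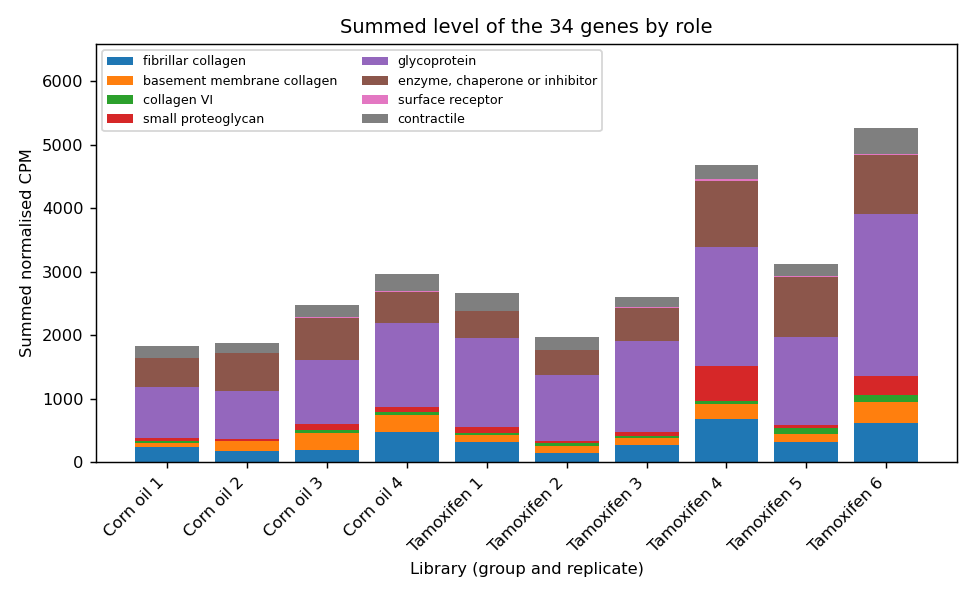
Summed level of the 34 genes in each library. The bars, which start at 0, give summed normalised CPM, coloured by the role of the genes; tamoxifen replicates 4 and 6 reach 4673 and 5268, above the corn oil range of 1828 to 2969.

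A small number of genes carried this sum. Fbln2, Timp2 and Fn1 took 34.5% to 63.1% of it in a library. Without these 3, the remaining sum was 693 to 1819 with corn oil, and 3060 and 2856 in tamoxifen replicates 4 and 6 against 745 to 1443 in the other tamoxifen libraries. Of the 34 genes, 25 had their highest level in tamoxifen replicate 4 (12 genes) or 6 (13 genes), and corn oil replicate 2 was lowest for 15. In 12 genes both of these tamoxifen libraries lay above every corn oil library. The same counts were not made over all tested genes, so they describe the libraries and are no result about the members.

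Markers of other cells were read beside this. Macrophage markers, 12 genes all with counts in every library, summed to 984 to 1470 with corn oil and 831 to 2260 with tamoxifen, and the highest was tamoxifen replicate 4 at 2260. Of these markers 8 had a fold change below 0 and 4 above, with a median log2 of -0.40, and 0 passed the FDR. Cd14, a large part of the sum, averaged 405 with corn oil and 783 with tamoxifen. Endothelial markers summed to 19.8 to 158 and 29.0 to 124, and pericyte and smooth muscle markers to 135 to 251 and 129.997 to 277. In tamoxifen replicate 6, the shallowest library, 7 of the 13 pericyte and smooth muscle markers and 6 of the 12 endothelial markers were at 0. The pericyte and smooth muscle markers still summed to 262 there, so that sum did not rest on the whole list. In corn oil replicate 2, the deepest, 4 pericyte and smooth muscle markers and 6 endothelial markers were at 0. Erg, of the endothelial list, and Lmod1, of the smooth muscle list, were at 0 in at least 5 libraries. The part of these cells in the levels of matrix genes was not tested.

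**Figure D2:**
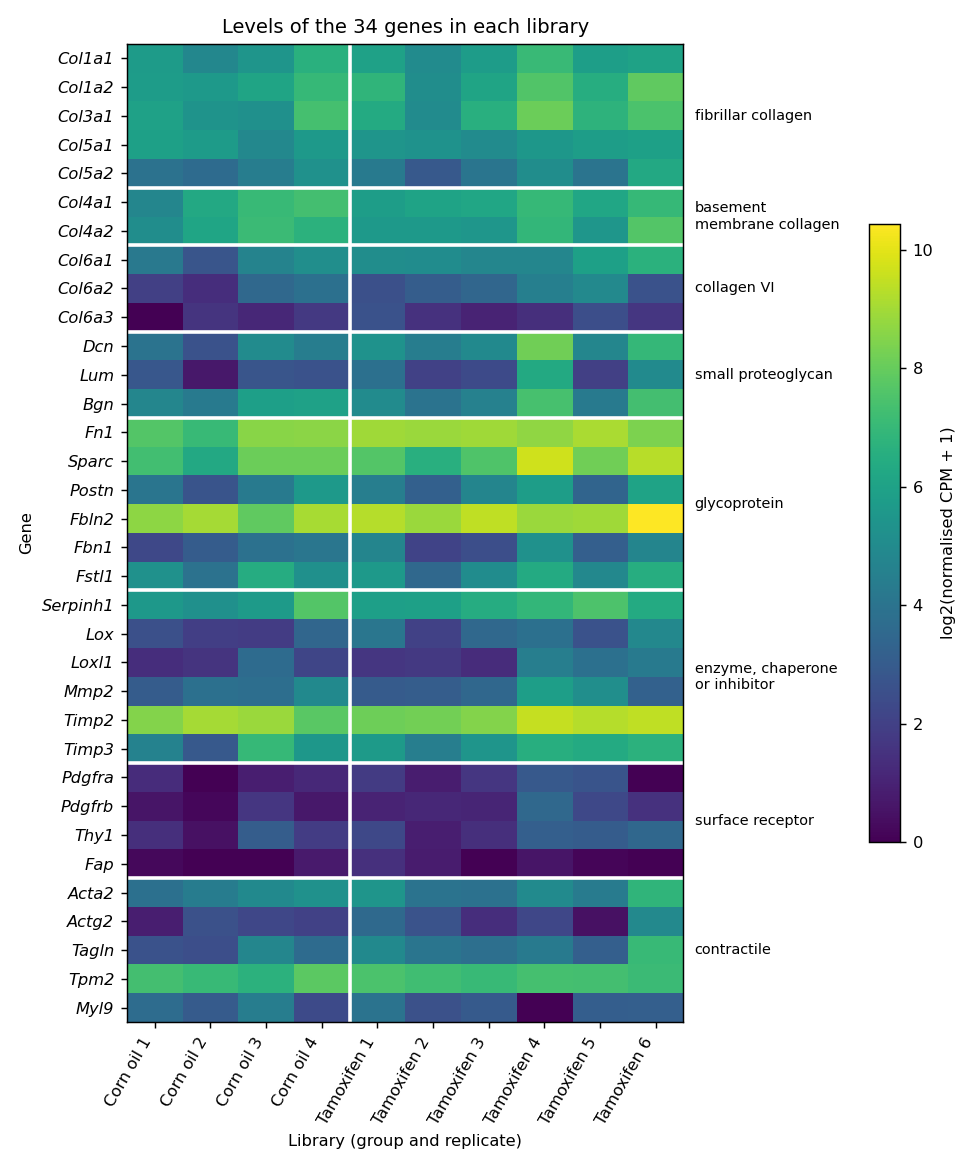
Level of each of the 34 genes (rows, grouped by role) in each library (columns), as log2 of normalised CPM plus 1. Fbln2, Timp2 and Fn1 are bright throughout, and Pdgfra, Pdgfrb and Fap dark throughout. The columns of tamoxifen replicates 4 and 6 hold the highest value of 25 genes, a count not made for all genes.

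The second question was whether tamoxifen and corn oil libraries differed. Of the 34 genes 33 had enough counts to be tested, all but Fap. None passed an FDR of 0.05 in edgeR's quasi-likelihood test over 13006 genes, where 0.0384% of all tested genes passed, 0.00769% higher and 0.0308% lower with tamoxifen. The smallest edgeR adjusted p was 0.355, for Dcn. At an unadjusted p under 0.05 there were 4 genes, Dcn, Fn1, Lum and Col6a1, all higher with tamoxifen. That is 12.1% of the tested members against 4.43% of all tested genes higher at that threshold, 5.27% lower and 9.7% in either direction. DESeq2 called 0 members past the FDR, against 1.89% of the genes it tested, and 5 at an unadjusted p under 0.05, against 12%. Limma voom called 1 of 33 members, Fn1 (adjusted p 0.0267), but it called 9.62% of all tested genes, so this count is no result about the members.

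In no tested member did the groups separate without overlap, as they did in 3.23% of all tested genes (1.28% higher and 1.95% lower). The fitted log2 fold change was above 0 in 29 of 33 members, against 49.3% of all tested genes. The median was 0.73 for the members and -0.01 for all tested genes. Without a filter on low counts, which could favour genes high in 1 group, it was above 0 in 30 of 34 with a median of 0.74. Without tamoxifen replicates 4 and 6 the median was 0.05, with 19 of 33 above 0. These libraries had the highest sums of these same genes, so leaving them out favours a lower median by selection. The role medians were then 0.90 for collagen VI and 1.10 for surface receptors, and the other roles ran from -0.73 to 0.42. Voom with sample quality weights gave a median of -0.05, with weights of 0.308 and 0.333 for tamoxifen replicates 4 and 6 and up to 5.49 for replicate 2.

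**Figure D3:**
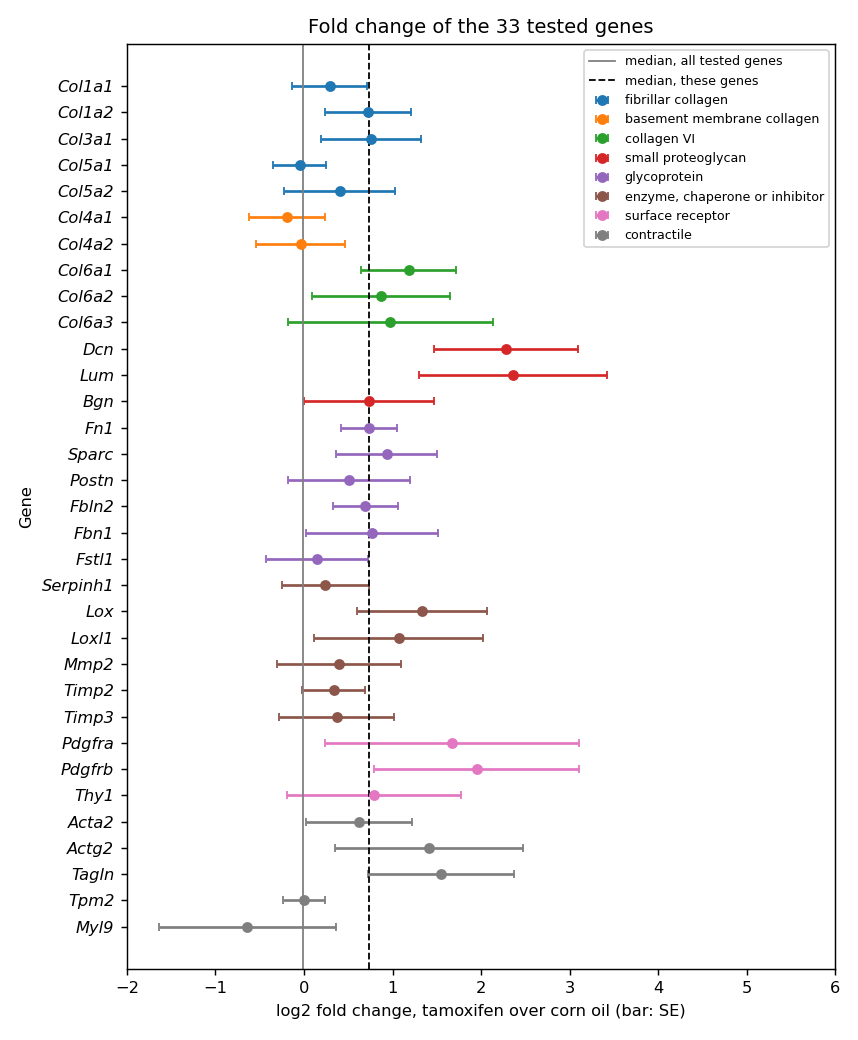
Log2 fold change of tamoxifen over corn oil for the 33 tested genes, coloured by role, with bars for 1 SE. The dashed line is the median of these genes (0.73) and the solid line that of all tested genes (-0.01); Dcn and Lum lie farthest to the right, and none of the genes passed the FDR.

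**Figure D4:**
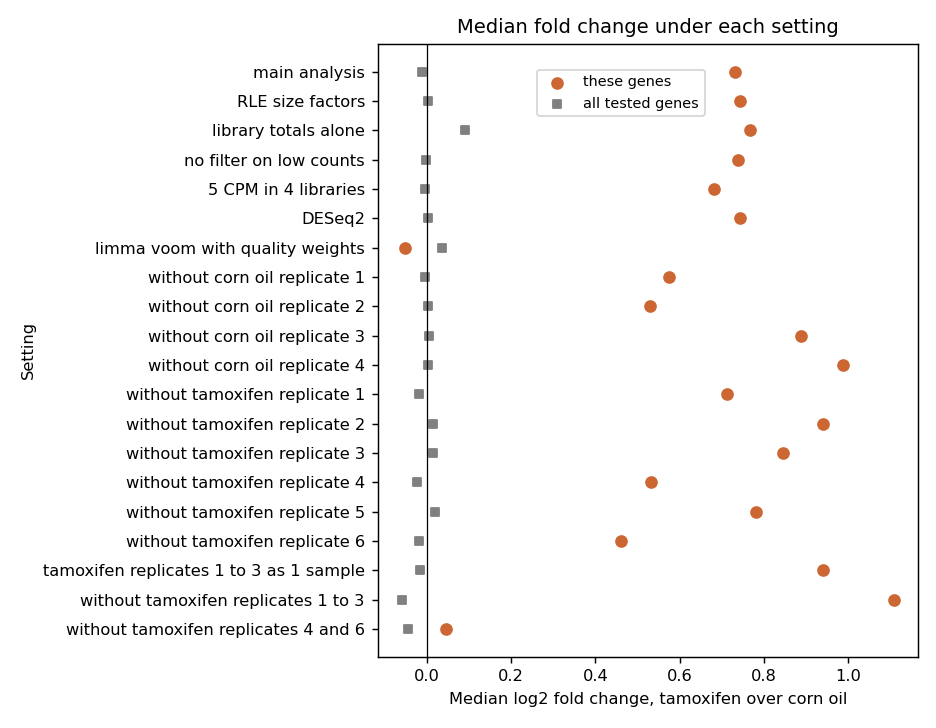
Median log2 fold change of the genes (circles) and of all tested genes (squares) under each setting. The circles run from -0.05, with limma voom, to 1.11, without tamoxifen replicates 1 to 3, and the median without tamoxifen replicates 4 and 6 is 0.05.

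Fibrillar collagens form the fibres of connective tissue. Collagen I is built of chains from Col1a1 and Col1a2, collagen III of Col3a1 chains, and collagen V, which seeds the fibres, of Col5a1 and Col5a2 chains. Col3a1 (chromosome 1, 45311538 to 45349706, GRCm38) stood at 61.9, 39.8, 36.5 and 165.7 normalised CPM in corn oil replicates 1 to 4. In tamoxifen libraries it had a lowest level of 31.5, a median of 101.8 and a highest of 271.7. The highest was replicate 4, and the range of tamoxifen enclosed that of corn oil, and its log2 fold change was 0.75 (SE 0.57, edgeR adjusted p 0.740). Col1a2 stood at 54.3, 47.7, 67.1 and 125.2 with corn oil, and at 33.8 (lowest), 101.3 (median) and 234.6 (highest, replicate 6) with tamoxifen. Its groups overlapped as well, and the fold change was 0.73 on the log2 scale (SE 0.49, edgeR adjusted p 0.702). Col1a1, the other collagen I chain, was at 27.1 to 97.3 and 32.1 to 134.7, and Col5a2 at 11.4 to 37.9 and 6.51 to 77.8. Col5a1 behaved differently, at 28.7 to 60.3 with corn oil and 32.1 to 60.5 with tamoxifen, a narrow range shared by both groups. The summed fibrillar collagens were 273 ± 137 (SD, n = 4) and 390.5 ± 209.9 (SD, n = 6), and 4 of the 5 had a log2 fold change above 0, with a median of 0.40. Without tamoxifen replicates 4 and 6 that median was -0.11, with Col3a1 at 0.06 and Col1a2 at 0.045, and with voom it was -0.26. Single libraries also moved these genes: Col3a1 was at 0.39 without tamoxifen replicate 4 and 1.48 without corn oil replicate 4, and Col1a2 at 0.43 without tamoxifen replicate 6 and 1.11 without corn oil replicate 4.

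The 2 chains of collagen I are joined in the protein in unequal number, with more of the Col1a1 product. Scaled to transcript length, the ratio of Col1a1 to Col1a2 was 0.245 to 0.876 over the 10 libraries, lowest in tamoxifen replicate 6. So Col1a2 had the higher length-scaled level in every library. That of Col3a1 to Col1a2 was 0.523 to 1.36.

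Basement membranes, the sheets under epithelia and around vessels, are built on collagen IV, whose main chains come from Col4a1 and Col4a2. These genes lie head to head on chromosome 8 and share 22 exon bases. Col4a1 stood at 26.7, 78.0, 130.4 and 157.6 normalised CPM with corn oil, and at 55.5 (lowest), 71.9 (median) and 126 (highest) with tamoxifen. Col4a2 stood at 33.9, 69.7, 136.8 and 102.7 with corn oil, and at 44.1, 48.4 and 198.4 with tamoxifen. Corn oil replicate 1 was the lowest library for both genes. Their log2 fold changes were -0.19 (SE 0.42) for Col4a1 and -0.04 (SE 0.51) for Col4a2, with edgeR adjusted p of 0.943 and 0.993. The length-scaled ratio of Col4a1 to Col4a2 stayed between 0.619 and 1.59, and among the 8 roles this was the one whose median fold change lay below 0. Its sign is not settled: it was 0.31 without tamoxifen replicates 1 to 3 and -0.73 without tamoxifen replicates 4 and 6.

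Collagen VI forms beaded filaments that link cells to the surrounding matrix. Col6a1 (chromosome 10, 76708792 to 76726168) stood at 17.5, 5.67, 24.6 and 34.3 normalised CPM with corn oil. With tamoxifen its lowest level was 26.5, its median 32.9 and its highest 100.7, in replicate 6. Corn oil replicates 1 to 3 lay below every tamoxifen library, and corn oil replicate 4 lay above 4 of the 6. The log2 fold change was 1.18 (SE 0.54), with an unadjusted edgeR p of 0.0472 and an adjusted p of 0.508. Col6a2 stood at 2.96, 1.55, 10.4 and 13.6 with corn oil and at 4.88, 8.66 and 29.3 (lowest, median and highest) with tamoxifen, and its highest library was replicate 5. Col6a3 was at most 5.23 in any library and at 0 in corn oil replicate 1. All 3 chains had a log2 fold change above 0, from 0.87 to 1.18, and the median of the role was 0.90 without tamoxifen replicates 4 and 6.

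Small leucine-rich proteoglycans bind collagen fibrils and set their diameter. Decorin (Dcn) and lumican (Lum) are markers of fibroblasts, and their genes are neighbours on chromosome 10, 46984 bases apart. Dcn (97479609 to 97518143) stood at 15.0, 5.18, 32.1 and 20.3 normalised CPM in corn oil replicates 1 to 4. In tamoxifen replicates 1 to 6 it stood at 39.1, 20.5, 30.2, 290.8, 27.1 and 121.6. Tamoxifen replicates 4 and 6 were far above all others, and the other 4 lay near the upper corn oil libraries. The log2 fold change was 2.28 (SE 0.81, unadjusted edgeR p 0.0150, adjusted p 0.355). It was 1.39 without tamoxifen replicate 4 and 0.68 without replicates 4 and 6. Lum (97565128 to 97572703) followed the same libraries, at 6.10, 0.579, 5.68 and 5.28 with corn oil and 13.5, 3.08, 4.07, 81.2, 2.98 and 31.2 with tamoxifen. Its log2 fold change was 2.36 (SE 1.07, unadjusted edgeR p 0.0452, adjusted p 0.503), and 0.42 without tamoxifen replicates 4 and 6. Biglycan (Bgn, chromosome X) stood at 26.5, 18.8, 58.5 and 62.0 with corn oil, and at 167.7 and 157.5 in tamoxifen replicates 4 and 6 against 14.6 to 31.5 in the other 4. Those 4 lay below the upper pair of corn oil libraries, and the log2 fold change of Bgn went from 0.73 (SE 0.73) to -0.92 without replicates 4 and 6.

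**Figure D5:**
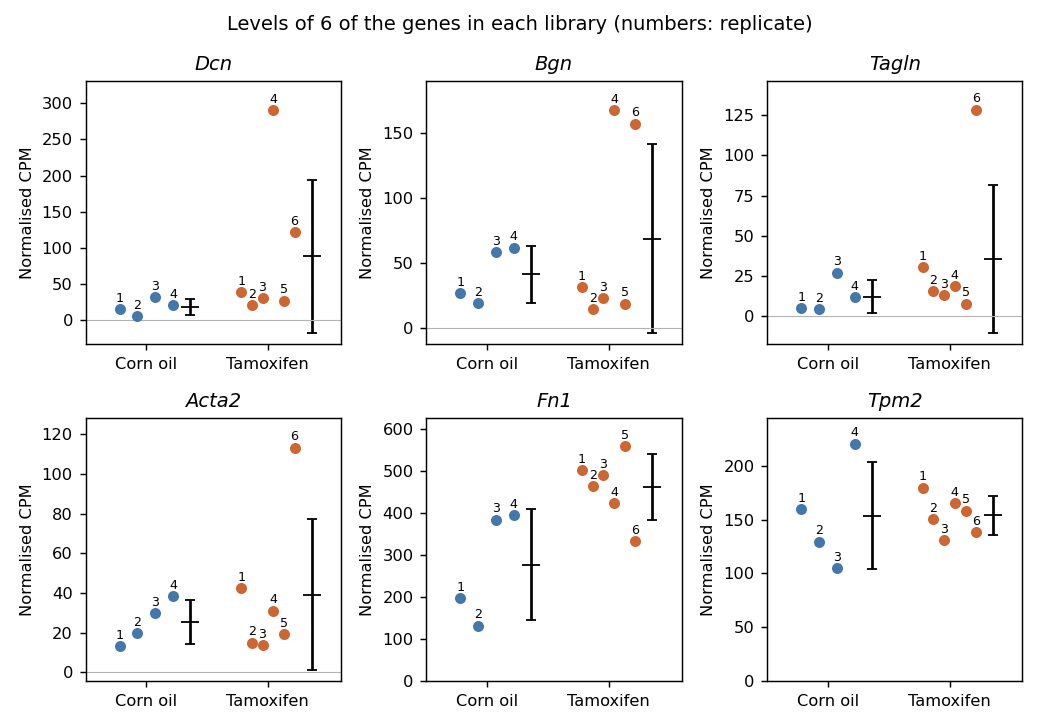
Normalised CPM of 6 genes in each library (points, labelled with the replicate number), with group mean and SD beside them. Dcn and Bgn are highest in tamoxifen replicates 4 and 6, Tagln and Acta2 in replicate 6, while Fn1 and Tpm2 lie in a narrower range.

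Matrix glycoproteins connect fibres, growth factors and cells. Fibronectin (Fn1, chromosome 1, 71585520 to 71653200) is laid down by fibroblasts and by many epithelial cells. It stood at 197.7, 131.3, 383.7 and 393.7 normalised CPM with corn oil and at 501.7, 462.5, 489.6, 421.9, 558.1 and 332.3 with tamoxifen. Of the tamoxifen libraries 5 lay above every corn oil library, and the exception was replicate 6, which was high for most of the other genes. The log2 fold change was 0.74 (SE 0.31, unadjusted edgeR p 0.0356, adjusted p 0.474), and over the alternatives it ran from 0.50 to 0.96. The gene shares 292 exon bases with Apol7d, whose reads cannot be told apart from it without strand.

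Sparc, a collagen-binding protein, had the highest mean level per kilobase of transcript of the 34 genes. It stood at 155.3, 77.4, 276.4 and 276.2 normalised CPM with corn oil and at 202.1, 95.4, 189.5, 826.6, 287.3 and 647 with tamoxifen. Tamoxifen replicates 4 and 6 again stood above the rest, and the log2 fold change, 0.93 (SE 0.57, edgeR adjusted p 0.666), became -0.02 without them. Fibulin 2 (Fbln2), which binds elastic fibres and basement membrane, stood at 400.4, 524.4, 234.4 and 541.7 with corn oil. It stood at 614.1, 461.5, 694.4, 461.6, 501.5 and 1390 with tamoxifen, where replicate 6 alone was far out. Its log2 fold change was 0.69 (SE 0.36, edgeR adjusted p 0.584), and 0.36 without that library. Periostin (Postn), fibrillin 1 (Fbn1) and follistatin-like 1 (Fstl1) were at 3.28 to 89.7 in all libraries, with log2 fold changes of 0.51, 0.76 and 0.15. All 6 glycoproteins had a fold change above 0, with a median of 0.71 that was close to 0 without tamoxifen replicates 4 and 6.

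Collagen needs a chaperone to fold, cross-linking enzymes to form fibres, and proteases with their inhibitors to be remodelled. Serpinh1, the collagen chaperone, stood at 46.9, 37.1, 50.05 and 198.4 normalised CPM with corn oil and at 57.8 (lowest), 84.8 (median) and 180.7 (highest) with tamoxifen. Corn oil replicate 4 was the highest of all libraries, and the other 3 corn oil libraries lay below every tamoxifen library. Its log2 fold change, 0.24 (SE 0.49, edgeR adjusted p 0.938), was 1.13 without corn oil replicate 4. Lysyl oxidase (Lox), which starts collagen cross-links, stood at 4.86, 2.84, 2.62 and 9.90 with corn oil and 3.08, 12.0 and 28.3 (lowest, median and highest) with tamoxifen. Its fitted change on the log2 scale was 1.34 (SE 0.73, edgeR adjusted p 0.612). The related Loxl1 was at 1.52 to 21.2 in all libraries and the gelatinase Mmp2 at 6.88 to 57.2. The metalloproteinase inhibitor Timp2 was among the most abundant members, at 366.0, 529.9, 462.9 and 214.9 with corn oil and 279, 492.4 and 729.2 with tamoxifen. Its groups overlapped over most of their range (log2 fold change 0.34, SE 0.35, edgeR adjusted p 0.839). Timp3 was at 6.55 to 125.9 and shares 1733 exon bases with Syn3, so its reads are uncertain. All 6 of these genes had a fold change above 0, with a median of 0.38, and of 0.02 without tamoxifen replicates 4 and 6.

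The surface receptor role, which also holds other surface proteins of fibroblasts and pericytes, had few reads. Over the 10 libraries they ran from 64 for Fap to 723 for Thy1. Pdgfrb, the platelet-derived growth factor receptor of pericytes and fibroblasts, stood at 0.493, 0.122, 2.18 and 0.582 normalised CPM with corn oil, from 4 to 54 reads. With tamoxifen it stood at 1.05, 1.26, 1.14, 10.6, 3.83 and 1.80, highest in replicate 4 with 168 reads. The log2 fold change was 1.95 (SE 1.15, edgeR adjusted p 0.651), but 1.10 without tamoxifen replicate 4 and 3.02 without corn oil replicate 3. Thy1, a surface protein of fibroblasts and other cells, stood at 1.66, 0.396, 7.54 and 2.66 with corn oil and 0.858, 5.55 and 10.3 (lowest, median and highest) with tamoxifen. Pdgfra, the fibroblast receptor for the same ligand family, was at 0 in corn oil replicate 2 and in tamoxifen replicate 6, and at most 6.47 elsewhere. A count of 0 allows up to 3 reads, which is 0.0915 normalised CPM in that corn oil library and 0.490 in that tamoxifen library, for counting error only. So tamoxifen replicate 6, with the highest summed level of the 34 genes, held no read of Pdgfra or Fap. Fap, the fibroblast activation protein, had 64 reads in all 10 libraries and none in 4 of them.

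Acta2 and Tagln, contractile genes of myofibroblasts and smooth muscle, were each lowest relative to Dcn in tamoxifen replicate 4 among the 10 libraries. Acta2 (chromosome 19, 34241090 to 34255590), smooth-muscle actin, stood at 13.3, 19.9, 29.9 and 38.3 normalised CPM with corn oil. It stood at 42.6, 14.9, 13.8, 31.1, 19.2 and 113.2 with tamoxifen, so that replicate 6 was high and replicate 4 lay within the corn oil range. Its log2 fold change was 0.62 (SE 0.60, edgeR adjusted p 0.817), and -0.06 without tamoxifen replicate 6. Of its 2146 transcript stretches of 50 bases, 0.326% are shared with another actin and none with Actg2, so reads of the actins are seldom interchangeable. Tagln, an actin-binding protein of the same cells (chromosome 9, 45929619 to 45936058), stood at 5.17, 4.63, 27.0 and 11.7 with corn oil and 30.3, 15.6, 12.98, 18.5, 7.86 and 128.4 with tamoxifen. Replicate 6 alone stood apart, and the log2 fold change was 1.55 (SE 0.82, edgeR adjusted p 0.593) and 0.49 without it. Actg2, the enteric smooth-muscle actin, was also highest there, at 28.8 against 0.398 to 10.7 in the other libraries. Tagln shares 1241 exon bases with an annotated gene that is not among the counted genes, and 108 with Pcsk7, so its reads are uncertain.

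The remaining contractile genes, Tpm2 and Myl9, were high neither in tamoxifen replicate 4 nor in replicate 6. Tpm2, a tropomyosin that many cells use, stood at 159.5, 129.6, 105.1 and 220.8 normalised CPM with corn oil and 130.9, 154.2 and 179.7 (lowest, median and highest) with tamoxifen. Its spread of 2.10-fold over the 10 libraries was the smallest of the members with a count in every library, and its log2 fold change was 0.00 (SE 0.24, edgeR adjusted p 0.9996). Myl9, a myosin light chain, was at 4.12 to 20.4 with corn oil. In tamoxifen libraries it was at 4.94 to 14.6 except in replicate 4, which had no read of it although that library was the highest for Dcn and Lum. Its log2 fold change was -0.64 (SE 0.999, edgeR adjusted p 0.909).

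The ratio of proteoglycan to contractile genes showed how tamoxifen replicates 4 and 6 differed from each other. Scaled to transcript length, the level of Dcn over that of Acta2 was 0.302 to 1.30 with corn oil. It was 10.8 in tamoxifen replicate 4, 1.24 in replicate 6 and 1.06 to 2.53 in the other 4. Dcn over Tagln was 14.3 in replicate 4 and 0.859 in replicate 6, against 1.01 to 3.13 in all other libraries. Fn1 over Col3a1 was lowest in these same libraries, at 1.04 and 1.23 against 1.59 to 9.83 elsewhere. Both libraries thus had much Dcn, Bgn and Sparc, replicate 6 alone had much Acta2 and Tagln, and in both Fn1 was low relative to Col3a1.

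Other genes of the same pathways were read beside these. Of 21 genes for collagen synthesis, such as the prolyl and lysyl hydroxylases, 15 had a log2 fold change above 0 and 0 passed the FDR, with a median of 0.76. At an unadjusted edgeR p under 0.05 there were 5, all higher with tamoxifen. Over all tested genes 4.43% were higher at that threshold, 9.7% passed it in either direction and 49.3% had a log2 fold change above 0. These shares stand beside the counts of every list in this paragraph. The lists were chosen with earlier results known, so the counts are no result about a pathway. P4ha1, a subunit of the enzyme that hydroxylates prolines of collagen, was at 8.90 to 29.5 normalised CPM with corn oil and 9.42 to 211 with tamoxifen (log2 fold change 2.76, SE 0.69, edgeR adjusted p 0.198). P4ha2 was at 32.0 to 77.6 and 81.1 to 272 (1.502, SE 0.38, edgeR adjusted p 0.199). Its groups did not overlap, as in 1.28% of all tested genes higher with tamoxifen. It was named for its small p, which favours such a separation. Of 42 other matrix genes 39 were tested, 20 with a fold change above 0 and a median of 0.03, and 5 were higher at an unadjusted p under 0.05, among them Mmp14 (0.94, edgeR adjusted p 0.271) and Efemp2 (1.07, edgeR adjusted p 0.299). Of 23 genes of TGF-beta and platelet-derived growth factor signalling, 17 were above 0 with a median of 0.34 and 4 were higher at an unadjusted p under 0.05. Smad4, a transcription factor of the pathway, was among them (1.56, SE 0.36, edgeR adjusted p 0.154), as was Ltbp3 (0.79, edgeR adjusted p 0.410). The groups did not overlap for Mmp14 and Smad4 either, and they overlapped for P4ha1, Efemp2 and Ltbp3.

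Mesenchymal regulators, which tumour cells and fibroblasts can both express, had 8 of 10 tested genes above 0, against 49.3% of all tested genes. Their median was 0.89. Vim, an intermediate filament of mesenchymal cells, was at 37.6 to 207 normalised CPM with corn oil and 234 to 409 with tamoxifen (log2 fold change 1.49, SE 0.43, edgeR adjusted p 0.258). Twist1 was at 0 to 14.4 and 28.6 to 56.2 (2.57, SE 0.96, edgeR adjusted p 0.384). The groups did not overlap for either gene, as in 1.28% of all tested genes higher with tamoxifen, and neither passed the FDR. Markers of inflammatory fibroblasts, as far as listed, had 4 of 9 tested genes above 0 and a median of -0.38, with sums of 505 to 774 and 209 to 920. Schwann cell markers summed to 101.6 to 153 with corn oil and 158 to 289 with tamoxifen, and acinar markers to 17.2 to 208 and 33.1 to 86.9. The acinar sum was nearly all Cela1, which alone was at 17.2 to 204 with corn oil and 33.1 to 86.8 with tamoxifen. Of the 8 acinar markers counted only 2 had enough reads to be tested, so the sum does not describe acinar markers as a set. Of the mesothelial markers only Msln, which tumour epithelium can also make, was tested (log2 fold change -0.12, edgeR adjusted p 0.953).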

How the data were processed

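Per the labels' protocols, tumour epithelium RNA from a Qiagen micro kit went through SMART-seq v4 amplification and Nextera XT, which do not mark strand. The values deposited by the authors are raw counts by gene symbol. bcl2fastq 2.17, STAR 2.5.2b, featureCounts 1.5.0-p3 and mm10 are named in the submitters' processing notes, while annotation, strand setting and treatment of multi-mapped reads were not given in the sources used here.

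Counts were tested with edgeR 4.0.16 (R 4.3.3): filterByExpr, TMM factors, quasi-likelihood F test of tamoxifen against corn oil without covariates, Benjamini-Hochberg adjustment over 13006 genes, FDR 0.05. The SE is the absolute log2 fold change over the square root of F. Lengths are those of the principal GENCODE M21 transcript. On simulated data for this comparison (12629 genes, 50 changed per fold) no gene changed 2-fold was recovered (0%). Recovery was 30% for 4-fold, 46% for 8-fold and 70% for 16-fold changes, and false calls numbered 2. Alternatives used DESeq2 1.42.0, limma 3.58.1 voom, other scalings and filters, and fewer libraries. Figures were drawn with matplotlib 3.10.9.

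The genes, their roles, the other lists and the alternatives were chosen with earlier results of these data known. Library values are given for any member past the FDR and, in each role, for the 2 with the highest level per length and the 1 of smallest p. Lum, Col1a1, Col5a1, Actg2, Pdgfra, Fap and Myl9 were described after their values were seen. Of other lists at most the 2 genes of smallest p are named.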

Additional observations from a re-analysis of the deposited data

Results flagged for a closer look

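In 86 comparisons of a library with the rest of its group, over the 34 genes and their sums by role, a Dixon gap test at 95% marked 10. For independent values with a normal spread about 1 in 20 would be marked by chance. The levels were not on a log scale and the sums hold the same genes, so that rate is not exact. The count of 10 is therefore not read as an excess. Tamoxifen replicate 4 stood above the other tamoxifen libraries for Dcn (290.8 normalised CPM, others 20.5 to 121.6), Lum (81.2, others 2.98 to 31.2), Pdgfrb (10.6, others 1.05 to 3.83) and Col1a1 (134.7, others 32.1 to 63.7). Tamoxifen replicate 6 stood above them for Tagln (128.4, others 7.86 to 30.3), Acta2 (113.2, others 13.8 to 42.6), Actg2 (28.8, others 0.398 to 10.7) and Fbln2 (1390, others 461.5 to 694.4). Among corn oil libraries, replicate 2 was lowest for Lum (0.579, others 5.28 to 6.10) and replicate 4 highest for Serpinh1 (198.4, others 37.1 to 50.05).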

How the results depend on the processing

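With limma voom and sample quality weights 1 member (Fn1, 0.95) passed the FDR, where edgeR and DESeq2 called 0, but over all tested genes voom called 1251, edgeR 5 and DESeq2 243. With voom the members' median log2 fold change was -0.052 in place of 0.73. The other settings kept that median above 0. Voom also gave log2 fold changes below 0 for Col1a2 (-0.26), Col3a1 (-0.052), Bgn (-0.85), Sparc (-0.21), Timp2 (-0.094), Thy1 (-0.29), Acta2 (-0.41) and Tpm2 (-0.013). Without tamoxifen replicates 4 and 6 14 of 33 members were below 0. Of the genes described library by library these included Bgn (-0.92), Sparc (-0.022), Timp2 (-0.015) and Acta2 (-0.17), whose sign turned, and Col4a1 (-0.57) and Col4a2 (-0.89), which were below 0 before. With tamoxifen replicates 1 to 3 as 1 sample the changes were 0.00043 for Col4a1 and 0.26 for Col4a2, and without them 0.14 and 0.49. With a filter of 5 CPM in 4 libraries Tpm2 was at -0.011. Leaving out 1 library at a time gave -0.51 to 0.13 for Col4a1, -0.50 to 0.28 for Col4a2, -0.0062 to 1.13 for Serpinh1, -0.061 to 0.89 for Acta2 and -0.14 to 0.23 for Tpm2, all changing sign. It gave a median of 0.46 to 0.99, and 1 to 6 members at an unadjusted p under 0.05, where 6.99% to 12.8% of all tested genes were under it. Some also moved over 1.5 times without 1 library: Bgn to 0.24 (tamoxifen replicate 4) or 0.30 (6), Sparc to 0.53 (4), Col6a2 to 0.54 (corn oil replicate 2), 1.39 (4) or 0.49 (tamoxifen replicate 5), Thy1 to 0.42 (corn oil replicate 2), 1.75 (3) or 0.49 (tamoxifen replicate 6), and Timp2 to 0.51 (corn oil replicate 2), 0.13 (4), 0.19 (tamoxifen replicate 4) or 0.22 (6). The cause of these differences was not tested. No paired analysis was possible because the labels give no replicate numbers shared between the groups. Depth limits Pdgfra, Pdgfrb, Thy1, Fap and Col6a3 most, and tamoxifen replicate 6 most among libraries.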
